A study of Glycine max with 32 samples.

Results

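The stage comparison in wild-type (WT) soybean at ambient CO2 used 8 of the 32 leaf libraries of the study. They were chosen by their labels alone, as WT, ambient CO2 and rings 1, 2, 4 and 7, with 1 library per ring at V4–V5 (31 days after sowing) and 1 at R5–R6 (86 days after sowing), and no measured value entered the choice. WT was the non-transgenic *Glycine max* cultivar Maverick, grown in the field at 410 µmol/mol CO2 in plots called rings. The other libraries came from WT at elevated CO2 (600 µmol/mol, other rings) and from VPZ-34A at both CO2 levels. VPZ-34A is 1 transformation event of Maverick that carries Arabidopsis *VDE*, *PsbS* and *ZEP*, grown in the same rings as WT. For the later date the labels give R6 and the study's methods R5–R6, the name used here. Each library pooled tissue of several plants of a plot, cut in the morning from the last leaf that was fully expanded. The comparison is thus of plants of 2 ages, each at its last fully expanded leaf, and not of 1 leaf as it aged. The node and the age of that leaf are not given. Stage, calendar date, weather, leaf age, node and position in the canopy cannot be told apart in this design. The ring labels, and the study's methods with 4 replicates from 4 rings or blocks of the field, make the samples of a stage separate plots.

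At V4–V5 a soybean plant builds its canopy, and its youngest expanded leaf has just built its walls, cuticle and chloroplasts. At R5–R6 pods fill with seed, and leaves begin to pass nitrogen, phosphorus and carbon on to the seeds by breaking down proteins, RNA and membrane lipids. Photoprotection continues through both stages. In the xanthophyll cycle, violaxanthin de-epoxidase (VDE) makes zeaxanthin in strong light, PsbS switches on the dissipation of light energy as heat, and zeaxanthin epoxidase (ZEP) turns zeaxanthin back.

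Total estimated counts per library ranged from 19062701 to 46976198 at V4–V5 and from 17242184 to 43341836 at R5–R6. Levels are given as CPM, counts per 1000000 of the library size after scaling by the Trimmed Mean of *M*-values (TMM), and 3 counts correspond to 0.0639 to 0.174 CPM before scaling, a floor that covers counting error only. At V4–V5 the 10 most abundant genes held 9.48% to 10.8% of the counts, against 3.88% to 6.63% at R5–R6. The transgenes had at most 2 (*AtVDE*), 29 (*AtPsbS*) and 12 (*AtZEP*) counts in any of the 8 libraries. The first principal component held 77.02% of the variance of log2 CPM and separated the stages. The V4–V5 library of ring 7 stood apart on it, at −79.0 against −122 to −132 in the other V4–V5 libraries and 97.4 to 140.1 at R5–R6, so that it lay nearer to the later stage. Where a gene's values are given one by one, the last of the 4 is that of ring 7, and calls of named genes that were lost without 1 ring are given with them.

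**Figure D1:**
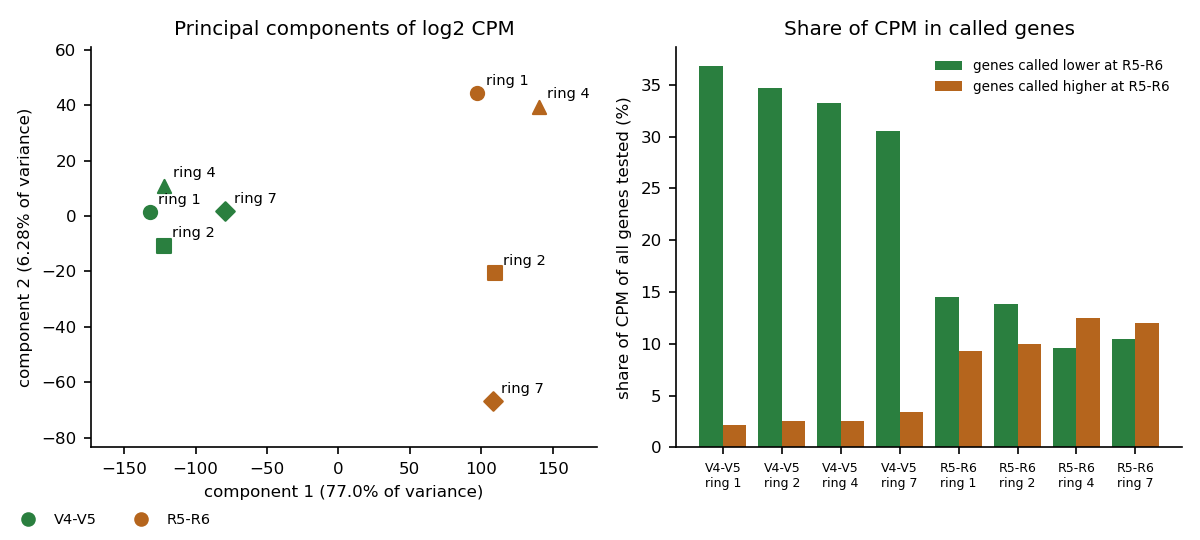
The 8 libraries of WT at ambient CO2. Left, the first (77.02% of variance) and second (6.28%) principal components of log2 CPM, with each point 1 library, coloured by stage. The V4–V5 library of ring 7 lies at −79.0 on the first component. Right, the share of CPM (%) held in each library by the genes called lower (30.5% to 36.8% at V4–V5, 9.59% to 14.5% at R5–R6) and higher (2.2% to 3.45%, then 9.32% to 12.5%) at R5–R6.

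The stage effect was wide and leaned towards genes that were lower at R5–R6. Of 32432 genes tested, 7790 were called (24%), with 2980 higher (9.19%) and 4810 lower (14.8%) at R5–R6, where a call means an adjusted p under 0.05 in edgeR's quasi-likelihood test with the ring as a block and a log2 fold change (log2FC) of at least 1 in size. At the adjusted p alone, 14191 genes passed (43.8%), with 6650 higher and 7541 lower. The lean grew with the size of the change, since 991 genes rose and 2205 fell by a log2FC of 2 or more, and 84 rose and 427 fell by 5 or more. In 14270 genes (44%) the 4 values of one stage did not overlap with those of the other, and 7142 of these were called. Without ring 7, 8763 genes were called, 3307 higher and 5456 lower, and these included 7293 of the 7790.

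The direction of this lean depended on the scaling. With total counts in place of TMM, the median log2FC of all genes tested moved from 0.02 to 0.34, and 5194 genes were called higher and 3577 lower, so that 59.2% of the calls were higher against 38.3% with TMM. Values below are on the TMM scale, relative to that median of 0.02. Gene groups whose median changed sign with total counts are named where they are described.

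Genes that fell held a large part of the counts at V4–V5. Genes were classed by the larger of their 2 stage means. Of the 130 genes with 1000 CPM or more, 70 fell (53.8%) and 10 rose, with a median log2FC of −1.11. Of the 1761 genes from 100 to 1000 CPM, 410 fell (23.3%) and 173 rose, with a median of −0.25. Genes called lower held 30.5% to 36.8% of the CPM of a V4–V5 library and 9.59% to 14.5% of an R5–R6 library. Those called higher went from 2.2% to 3.45% at V4–V5 to 9.32% to 12.5% at R5–R6, and for neither set did the libraries of the stages overlap, which the calls themselves imply. In such bulk samples fewer cells of a type and less RNA per cell cannot be told apart.

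**Figure D2:**
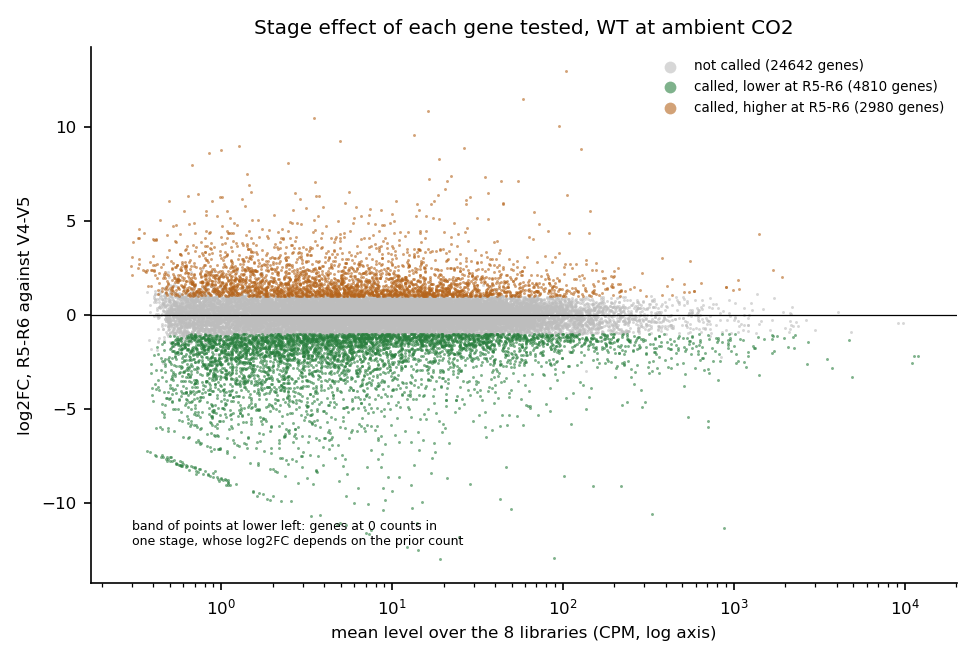
Stage effect of each of the 32432 genes tested. The x axis is the mean level over the 8 libraries (CPM, log axis) and the y axis the log2FC of R5–R6 against V4–V5, with 2980 genes called higher in brown and 4810 called lower in green. Of the 130 genes with a mean of 1000 CPM or more in the stage where they were higher, 70 were called lower and 10 higher. That mean is not the x axis, so some of them lie left of 1000 CPM.

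The size of the change differed between rings. The median log2 ratio of R5–R6 to V4–V5 (with 0.5 CPM added to each value) over the genes called higher was 1.39, 1.29, 1.53 and 1.19 in rings 1, 2, 4 and 7, and over the genes called lower it was −1.56, −1.58, −1.74 and −1.27. The smallest medians of both sets were those of ring 7. The ratio had the sign of the fit in 98.3% of the called genes in ring 7 and in 99.7% to 99.9% in the other rings. The direction within a ring follows from the calls, which were made on these same 4 rings, and over all genes tested the ring medians were 0.0008 to 0.029. Spread was compared in 22306 genes with a mean of 5 CPM or more in the stage where they were higher. Genes that fell can pass this filter through V4–V5 alone and be scarce at R5–R6, so the spreads are partly of unlike levels. The SD of log2 CPM (0.5 CPM added) over the 4 rings had a median of 0.19 at V4–V5 against 0.23 at R5–R6. Without ring 7 the medians were 0.15 and 0.22. Of the 22306 genes, 60.9% had the larger SD at R5–R6 with all 4 rings, and the part of level in this was not tested.

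Of the genes tested, 706 had a name entry in the text or supplement of the study, as the closest Arabidopsis gene and its description. These IDs had been listed by the study for effects of line, CO2 or their interaction in these same libraries, so that their counts are not independent evidence of a direction. A share of 40.8% of them was called for stage, 137 higher and 151 lower, against 24% of all genes tested. The roles given below are those of the Arabidopsis genes after which the soybean genes are named. From these names, 19 groups by function were formed. Their shares are set below beside those of all genes tested, although the named genes were called more often in both directions. A group share above that of all genes tested is thus not by itself particular to the group. Of their 295 members, 253 passed the filter on low counts and were tested. Of these, 50 rose and 65 fell, beside 2980 (9.19%) and 4810 (14.8%) of the 32432 genes tested. Without ring 7, 8 of these 115 calls were lost and 19 members gained one. Defining leaf markers could be checked only in part, because the names hold no Rubisco, seed storage or leghaemoglobin gene. The 2 copies of *ELIP1*, a chlorophyll-binding protein of the thylakoid, had 1588 CPM or more in every library.

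**Figure D3:**
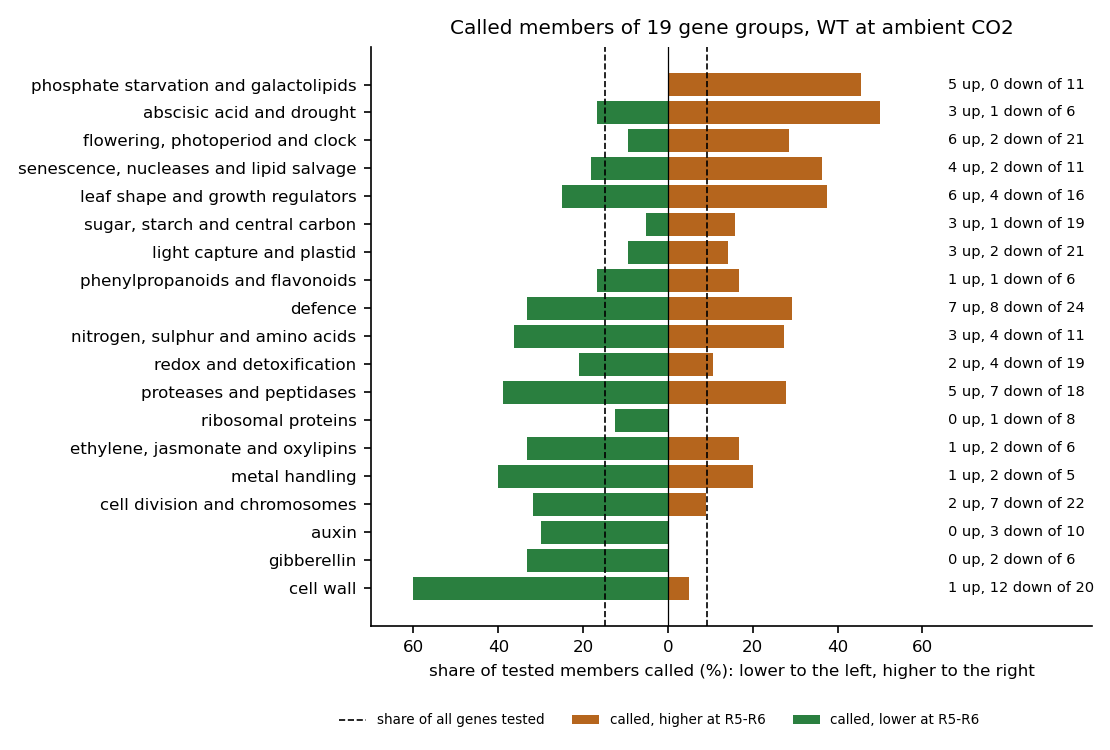
Share of the tested members of each of 19 gene groups called lower (green, to the left) or higher (brown, to the right) at R5–R6, in percent, with the numbers at the right. The dashed lines mark the shares of all genes tested, 14.8% lower and 9.19% higher. The 706 named genes tested, from which the groups were formed, had larger shares, with 151 lower and 137 higher. Cell wall genes reach farthest to the left, with 12 of 20 members lower, and the phosphate group has 5 of 11 members higher and 0 lower (3 higher without the ring as a block). With total counts as the scale, 2 cell wall members were called higher and 11 lower, and 8 phosphate members higher and 0 lower.

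Most genes of light capture and the plastid were not called, and a few moved far. Of 21 members tested, 3 rose (14.3%, against 9.19% of all genes tested), 2 fell (9.52%, against 14.8% of all genes tested) and 16 were not called, with a median log2FC of −0.41. The 3 that rose were both genes named *ZEP* and *FTSH8*, and the 2 that fell were *DXS* and a chlorophyll a-b binding family gene.

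The study describes *ZEP* Glyma.09G000600 as a *ZEP*-like homologue that acts in the native cycle of lutein epoxide and lutein. It had 1.98, 1.62, 1.58 and 4.85 CPM in rings 1, 2, 4 and 7 at V4–V5 against 20.5, 27.2, 24.6 and 31.9 CPM at R5–R6. All 4 later values lay above all 4 earlier ones, with ring 7 highest at both stages, and the log2FC was 3.51 (standard error 0.25, adjusted p = 0.000176). The second gene, *ZEP* Glyma.11G055700, went from 9.07, 9.36, 8.25 and 13.3 CPM to 29.7, 25.8, 38.4 and 46.8 CPM, again without overlap (log2FC 1.80, standard error 0.16, adjusted p = 0.000293). Ring 7 was the highest ring for this gene too.

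Of the 7 native *VDE*, *PsbS* and *ZEP* genes of the study, these 2 were the ones called. The sources used here list the other 5 IDs without saying which family each belongs to. Glyma.06G113200 went from 2673 ± 109 CPM (SD, n = 4) to 1578 ± 116 CPM without overlap, with an adjusted p of 0.0183 and a log2FC of −0.76, short of the size for a call. Glyma.04G249700 had 2848 ± 157 and 1928 ± 195 CPM (log2FC −0.57, adjusted p = 0.0579), and Glyma.17G174500 had 1418 ± 162 and 1015 ± 263 CPM (adjusted p = 0.1203). The least changed were Glyma.03G253500, at 106 ± 5.63 and 97.4 ± 12.3 CPM, and Glyma.19G251000, at 78.9 ± 4.13 and 92.4 ± 9.35 CPM. The log2FC of Glyma.03G253500 was −0.13 and became 0.19 with total counts, and no call followed in either case.

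*FTSH8* (Glyma.15G158900), a subunit of the thylakoid protease that removes photodamaged photosystem II proteins, had 29.3, 35.8, 32.9 and 38.1 CPM at V4–V5 against 164, 185, 385 and 219 CPM at R5–R6. Every later value was above every earlier one, and ring 4 was the highest (log2FC 2.73, standard error 0.24, adjusted p = 0.000293). *DXS* (Glyma.13G213500), the first enzyme of the plastid pathway to carotenoids and other isoprenoids, went from 28.4, 26.4, 27.2 and 11.6 CPM to 1.29, 2.51, 1.53 and 5.33 CPM. The stages did not overlap, and ring 7 had the lowest V4–V5 value and the highest R5–R6 value (log2FC −3.27, adjusted p = 0.00304). The chlorophyll a-b binding family gene Glyma.19G261400 fell from 14.4, 13.996, 11.01 and 9.98 CPM to 1.096, 1.19, 1.33 and 0.449 CPM (log2FC −3.61, adjusted p = 0.000148).

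The 2 *ELIP1* genes, whose product binds pigments under light stress, were not called. Glyma.20G150600 had 3136, 3518, 4845 and 3968 CPM at V4–V5 against 4199, 4917, 4282 and 3727 CPM at R5–R6, and Glyma.10G243800 had 1849 ± 308 and 2059.6 ± 334 CPM. In both the stages overlapped, both had a log2FC of 0.16, and that of Glyma.10G243800 was −0.012 without ring 2. Reads of near-identical copies were shared between them, so the split of counts within this pair, and within the other same-name pairs below, is uncertain.

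**Figure D4:**
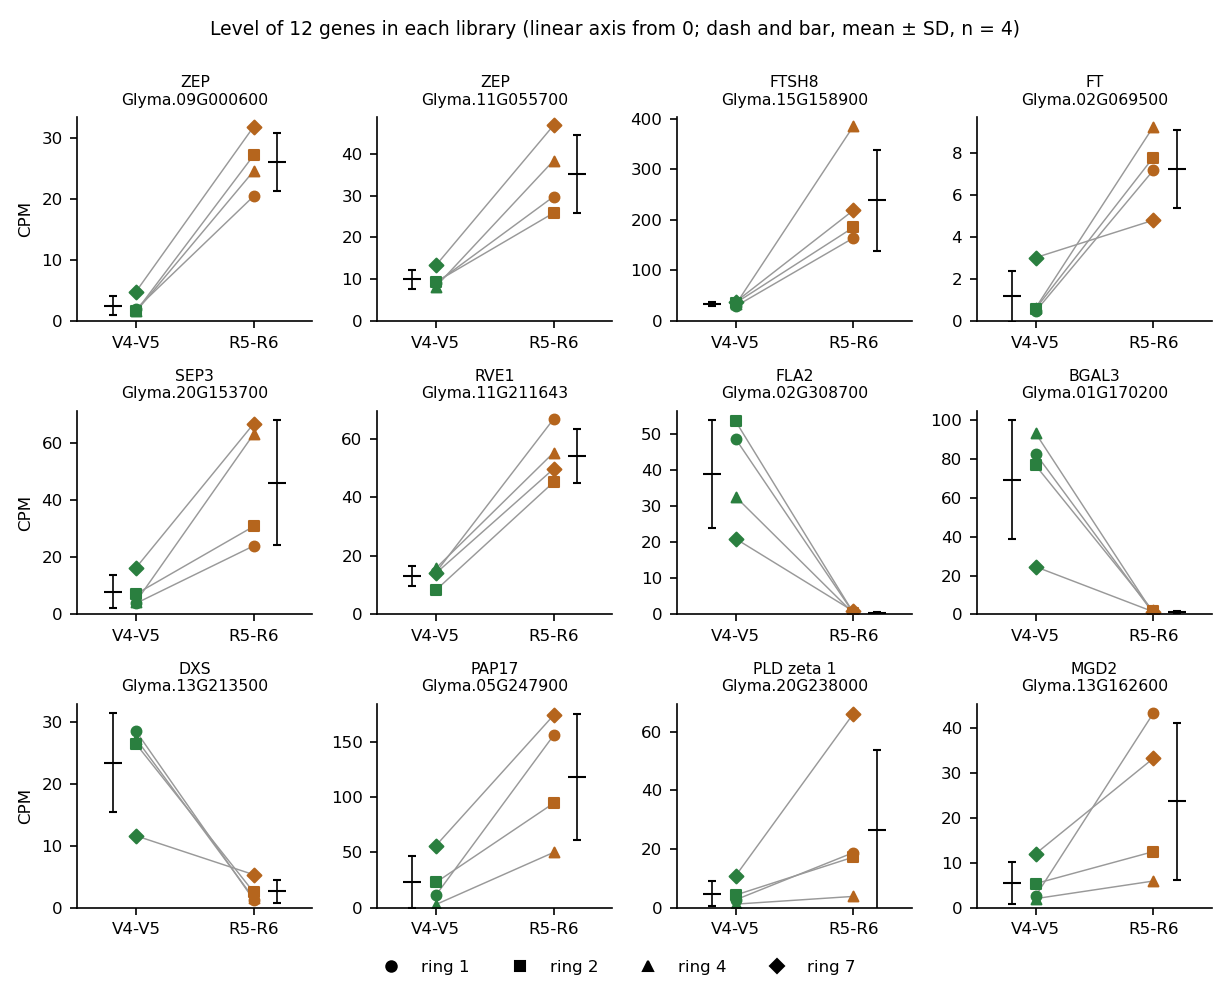
Level (CPM, linear axes from 0) of 12 genes in each of the 8 libraries. Symbols mark rings 1, 2, 4 and 7, lines join the libraries of a ring, and dashes with bars give the mean ± SD (n = 4). In the panels of *ZEP*, *FTSH8*, *FT*, *SEP3*, *RVE1*, *FLA2*, *BGAL3* and *DXS* the stages do not overlap, and in those of *PAP17*, *PLD zeta 1* and *MGD2* they do, with ring 4 lowest at both stages.

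Cell wall genes had the largest share of members that fell among the 19 groups. Of 20 members tested, 12 fell (60%, against 14.8% of all genes tested), 1 rose (5%, against 9.19%) and 7 were not called. The median log2FC was −1.45 (−1.14 with total counts). The 12 were *FLA2*, *BGAL3*, both copies of *sks5*, *sks17*, *EXPA15*, *PG2*, *CSLC12*, *ATAGP15*, 2 pectin methylesterase inhibitor family genes and a hydroxyproline-rich glycoprotein gene. The 1 that rose was a pectin lyase-like gene, Glyma.19G226500, at 0.408 CPM at V4–V5 against 1.59 CPM at R5–R6. Without ring 7, 11 members fell and 2 rose, and *ATAGP15* (log2FC −1.21, and −1.13 without ring 4) and the inhibitor gene Glyma.05G236600 (−1.34) were no longer called. The latter was also not called without ring 1 (−1.34) or 2 (−1.24), or without the ring as a block (−1.20).

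*FLA2* (Glyma.02G308700), an arabinogalactan protein of the wall surface, had 48.6, 53.5, 32.6 and 20.96 CPM at V4–V5 against 0.429, 0.457, 0.318 and 0.897 CPM at R5–R6. No R5–R6 value came near the lowest V4–V5 value, that of ring 7, and the log2FC was −6.20 (standard error 0.40, adjusted p = 0.000122). *BGAL3* (Glyma.01G170200), a beta-galactosidase that trims wall polysaccharides, went from 82.7, 76.6, 93.2 and 24.5 CPM to 0.667, 1.69, 0.616 and 1.396 CPM (log2FC −5.96, standard error 0.53, adjusted p = 0.000309). Ring 7 was again the lowest of the V4–V5 libraries, and the stages were far apart in every ring. The pectin methylesterase inhibitor family gene Glyma.17G044500 fell from 61.2, 72.4, 95.6 and 25.8 CPM to 2.15, 2.33, 1.21 and 7.03 CPM (log2FC −4.52, adjusted p = 0.00246).

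The 2 copies of *sks5*, which code for proteins of the wall related to multicopper oxidases, fell together, with log2FC values of −5.01 (Glyma.17G261500) and −3.64 (Glyma.11G097300). *EXPA15* (Glyma.07G229000), an expansin that loosens walls during cell expansion, had 7.499 ± 2.08 CPM at V4–V5 against 1.57 ± 0.557 CPM at R5–R6 (log2FC −2.26, adjusted p = 0.00223). *CSLE1* (Glyma.08G330600), a cellulose synthase-like gene, moved the other way without a call, from 76.5, 77.3, 80.6 and 55.7 CPM to 123, 104, 159 and 88.3 CPM. Its stages did not overlap and its adjusted p was 0.00823, with a log2FC of 0.69 that became 1.01 with total counts.

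Of 22 genes of cell division and chromosomes, 7 fell (31.8%, against 14.8% of all genes tested), 2 rose (9.09%, near the 9.19% of all genes tested) and 13 were not called, with a median log2FC of −0.27 that became 0.05 with total counts. Those that fell code mostly for the spindle and the cytoskeleton, namely *KP1* and a kinesin motor family gene, *MAP65-6*, *MAP65-8*, a TPX2 family gene and *TUB1*, together with *KRP7*. The 2 that rose were *SMC5* and *ZYP1a*. The kinesin motor family gene, Glyma.06G009000, was not called without ring 1, 2 or 4 (log2FC −1.43, −1.54 and −1.44), nor *MAP65-6* without ring 2 (−0.96).

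*TUB1* (Glyma.17G258300), a beta-tubulin, had 37.5, 52.3, 31.6 and 27.4 CPM at V4–V5 against 5.15, 8.86, 3.93 and 18.2 CPM at R5–R6. The stages were separate, with ring 7 lowest at V4–V5 and highest at R5–R6 (log2FC −2.27, adjusted p = 0.00407). *KRP7* (Glyma.17G175700), an inhibitor of the kinases that drive the cell cycle, fell from 4.08 ± 0.759 CPM to 0.597 ± 0.334 CPM (log2FC −2.93, adjusted p = 0.00263). *SMC5* (Glyma.20G198300), a part of a complex for DNA repair, rose from 6.63, 6.398, 5.48 and 6.802 CPM to 15.8, 17.3, 20.9 and 21.1 CPM (log2FC 1.56, adjusted p = 0.000446).

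Of 8 ribosomal protein genes 1 fell (12.5%, against 14.8% of all genes tested), a gene of the L4/L1 family (Glyma.19G178100, 5.65 CPM at V4–V5 against 1.91 CPM at R5–R6). None of the 8 rose, and their median log2FC of −0.30 became 0.02 with total counts.

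Of 16 genes grouped under leaf shape and growth, 6 rose (37.5%, against 9.19% of all genes tested) and 4 fell (25%, against 14.8% of all genes tested), with a median log2FC of 0.42. Not all members are regulators, since *ABCG11* and *KCS12* are genes for cuticular lipids. The 6 were both copies of *KLU*, both copies of *BIN2*, *HB1* and *TCP13*, and the 4 were *RTFL8*, *PDF2*, *ABCG11* and *KCS12*. *TCP13* was not called without ring 4 (log2FC 0.81).

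*KLU* is a cytochrome P450 that sets organ size in Arabidopsis. Glyma.08G104100 had 4.54, 3.43, 2.99 and 7.58 CPM at V4–V5 against 24.8, 18.5, 37.1 and 23.9 CPM at R5–R6 (log2FC 2.51, adjusted p = 0.000816), and Glyma.05G147100 had 0, 0.141, 0.113 and 0.3903 CPM and 9.15, 3.88, 11.8 and 4.14 CPM (log2FC 5.25, adjusted p = 0.000791). Both were highest in ring 4 at R5–R6 and in ring 7 at V4–V5, and neither overlapped between stages. *BIN2*, a kinase that restrains brassinosteroid signalling, had 4.19, 3.58, 3.502 and 9.09 CPM and then 18.1, 16.5, 27.1 and 10.8 CPM for Glyma.02G069400 (log2FC 1.88, adjusted p = 0.00897). The copy Glyma.13G224300 had a log2FC of 2.02 (adjusted p = 0.0111), and its call was lost without ring 1 (1.86) and without ring 2 (1.81). *HB1* (Glyma.02G022300), a homeodomain leucine zipper factor, rose from 18.02 ± 3.09 CPM to 64.02 ± 15.9 CPM (log2FC 1.81, adjusted p = 0.000961).

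Genes for cuticular lipids were among those that fell. *ABCG11* (Glyma.13G043500), an exporter of such lipids, had 9.305, 7.67, 7.46 and 4.68 CPM at V4–V5 against 1.53, 1.004, 0.973 and 1.15 CPM at R5–R6 (log2FC −2.64, standard error 0.23, adjusted p = 0.000307). *KCS12* (Glyma.12G075100), of the family that elongates very long chain fatty acids, had 15.4, 6.304, 5.31 and 6.75 CPM and then 2.24, 0.959, 0.834 and 0.249 CPM (log2FC −3.04, adjusted p = 0.000601). The stages did not overlap in either gene. A GDSL-like lipase family gene in no group, Glyma.13G231300, fell from 91.7, 85.6, 88.3 and 37.02 CPM to 2.002, 1.096, 0.616 and 0.847 CPM (log2FC −6.13, adjusted p = 8.6e-05), with ring 7 the lowest V4–V5 library.

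Flowering, photoperiod and clock genes had 6 of 21 members higher (28.6%, against 9.19% of all genes tested), 2 lower (9.52%, against 14.8% of all genes tested) and a median log2FC of 0.45. The 6 were *FT*, *SEP3*, both copies of *AGL42*, 1 copy of *TIC* and *RVE1*, and the 2 were *CDF2* and 1 copy of *TOE1*.

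*FT* (Glyma.02G069500), named after the mobile flowering signal that Arabidopsis leaves send to the shoot tip, had 0.465, 0.588, 0.621 and 3.01 CPM at V4–V5 against 7.15, 7.76, 9.21 and 4.79 CPM at R5–R6. Ring 7 was the highest at V4–V5 and the lowest at R5–R6, and the stages still did not overlap (log2FC 2.95, standard error 0.59, adjusted p = 0.00641). *SEP3* (Glyma.20G153700), a MADS-box factor of floral organs, went from 3.896, 7.17, 4.52 and 16.4 CPM to 24.03, 30.9, 63.2 and 66.8 CPM, with ring 7 highest at both stages (log2FC 2.61, adjusted p = 0.000758). The MADS-box gene *AGL42* Glyma.10G240500 was at 0 in 3 V4–V5 libraries and at 0.174 CPM in ring 1, and had 1.53, 2.56, 0.834 and 1.396 CPM at R5–R6 (adjusted p = 0.00215). Its copy Glyma.20G154200 overlapped between stages, rose in 3 of 4 rings and lost its call without ring 4 (log2FC 2.98) or ring 7 (2.35), and without ring 1 it did not pass the filter on low counts.

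The 2 genes that fell are named after repressors of flowering in Arabidopsis. *SVP* (Glyma.01G023500), named after another such repressor, was not called. *CDF2* (Glyma.13G062500) had 7.68, 6.77, 8.02 and 14.6 CPM at V4–V5 against 0.477, 1.42, 0.397 and 2.64 CPM at R5–R6 (log2FC −3.16, adjusted p = 0.000965), and ring 7 was highest at both stages. *TOE1* Glyma.19G178200 fell from 2.98 ± 1.13 CPM to 0.946 ± 0.307 CPM (log2FC −1.67, adjusted p = 0.00358). The more abundant copy Glyma.11G149825 moved the other way, with 22.5 ± 2.63 and 30.9 ± 4.87 CPM. Its log2FC of 0.45 (adjusted p = 0.0281) was short of the size for a call.

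Of the clock-related genes, *RVE1* (Glyma.11G211643), a MYB-like factor, rose from 14.4, 8.303, 15.8 and 14.05 CPM to 66.6, 45.1, 55.2 and 49.6 CPM (log2FC 2.07, standard error 0.16, adjusted p = 0.000198). *TIC* Glyma.10G027000 rose from 4.71, 6.33, 5.03 and 4.13 CPM to 14.97, 18.8, 19.3 and 22.4 CPM (log2FC 1.90, adjusted p = 0.000383), with no overlap in either gene. The second *TIC* copy, Glyma.20G144400, had 82.6 ± 9.65 and 133 ± 23.8 CPM and a log2FC of 0.68, past the adjusted p but not the size for a call. Samples of both stages were taken in the same morning hours.

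Of 11 phosphate starvation and galactolipid genes, 5 rose (45.5%, against 9.19% of all genes tested), 0 fell (against 14.8% of all genes tested) and 6 were not called, with a median log2FC of 1.71. Those that rose were *PAP17*, *PLD zeta 1*, 1 copy of *MGD2* and 2 pyridoxal phosphate phosphatase-related genes (Glyma.07G011800 and Glyma.08G195000). The calls of the last pair depended on the ring as a block, since without it 3 members were called and this pair was not (log2FC 1.95 and 1.96, adjusted p = 0.0973 and 0.0954 in edgeR). Without ring 4 the same pair was not called either (1.79 and 2.02), while DESeq2 and total counts each called 8 of the 11.

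*PAP17* (Glyma.05G247900), an acid phosphatase induced by low phosphate in Arabidopsis, had 11.4, 22.9, 2.94 and 56.2 CPM in rings 1, 2, 4 and 7 at V4–V5 against 156, 94.5, 50.002 and 174 CPM at R5–R6. The value of ring 4 at R5–R6 lay below that of ring 7 at V4–V5, so the stages overlapped, although each of the 4 rings was higher at R5–R6 (log2FC 2.83, standard error 0.45, adjusted p = 0.00249). *PLD zeta 1* (Glyma.20G238000), a phospholipase that frees phosphate from membranes, went from 2.73, 4.35, 1.24 and 10.9 CPM to 18.8, 17.3, 3.87 and 66.1 CPM, also higher in 4 of 4 rings (log2FC 2.29, adjusted p = 0.000346). *MGD2*, which makes galactolipids that replace phospholipids, had 2.62, 5.39, 2.03 and 12.04 CPM and then 43.3, 12.5, 5.96 and 33.3 CPM for Glyma.13G162600 (log2FC 1.995, adjusted p = 0.0108). All 3 genes were lowest in ring 4 at both stages.

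The order of the rings was much the same across this group. Ring 4 had the lowest value in 10 of 11 members at V4–V5 and in 11 of 11 at R5–R6, against 27.1% and 25.6% of all genes tested. Ring 7 had the highest value in 10 of 11 at V4–V5, and ring 1 in 8 and ring 7 in 3 of 11 at R5–R6. This order was noticed in the values and is a description, since members of a pathway are not independent and the cause was not tested.

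Members that were not called showed it as well. *SQD2* Glyma.03G078300, for a sulfolipid that replaces phospholipids, had 65.9, 70.8, 10.4 and 58.3 CPM at V4–V5 against 28.6, 26.5, 2.01 and 78.5 CPM at R5–R6, lower at R5–R6 in 3 of 4 rings (log2FC −1.12, adjusted p = 0.0578). *SQD2* Glyma.01G113000 had 77.1, 91.8, 42.9 and 125 CPM and 256, 113, 38.1 and 210.0 CPM, higher in 3 of 4 rings (log2FC 0.64, adjusted p = 0.117). The second *MGD2*, Glyma.17G108700, had 3.26, 9.06, 1.13 and 12.5 CPM and 28.2, 7.67, 2.01 and 22.3 CPM (log2FC 1.09, adjusted p = 0.116). In all 3 genes the rings of a stage differed by more than the means of the stages did. Without ring 7, 6 members of the group were called higher and 1 lower, the latter being *SQD2* Glyma.03G078300 (log2FC −1.62).

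Of 11 tested genes tied to senescence and salvage, 4 rose (36.4%, against 9.19% of all genes tested) and 2 fell (18.2%, against 14.8% of all genes tested). The 4 were *SAG12*, *RNS2*, *ICL* and *PLD zeta 1*, the 2 were *RNS1* and *PAO2*, and 5 were not called, with a median log2FC of 0.32 for the group.

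*SAG12* (Glyma.12G131200), a cysteine protease used as a marker of leaf senescence in Arabidopsis, was scarce in counts at both stages. It had 0.291, 0.165, 0.452 and 0.613 CPM at V4–V5 against 3.099, 0.776, 1.25 and 1.05 CPM at R5–R6, highest in ring 1 (log2FC 1.92, standard error 0.46, adjusted p = 0.0137). The stages did not overlap, and the call was lost without ring 1 (log2FC 1.44) or ring 2 (1.83). *ICL* (Glyma.06G303200), of the glyoxylate cycle that turns fatty acids into sugars, had 0 counts in the 4 V4–V5 libraries and 1.19, 0.731, 2.84 and 0.648 CPM in the R5–R6 libraries. Each of the R5–R6 values lay above the floor of 3 counts (0.0639 to 0.174 CPM before scaling), and no fold is given against 0 counts.

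*RNS2* (Glyma.07G059300), a vacuolar ribonuclease that recycles ribosomal RNA in Arabidopsis, had 25.5, 30.6, 18.4 and 26.8 CPM and then 46.8, 54.5, 38.8 and 144 CPM. Ring 7 was far above the other R5–R6 libraries, and without it the log2FC went from 1.29 to 0.93 and the gene was not called. *RNS1* (Glyma.20G036100), a secreted ribonuclease, fell from 2.501, 16.5, 3.61 and 3.401 CPM to 0.0953, 0.228, 0.0794 and 2.34 CPM (log2FC −3.78, adjusted p = 0.01595), and its call was lost without ring 1, 2 or 4 (−3.64, −3.02 and −3.21). *PAO2* (Glyma.18G116300), a polyamine oxidase, fell more evenly, from 10.002, 11.6, 9.88 and 6.97 CPM to 1.14, 1.004, 1.19 and 0.997 CPM (log2FC −3.13, adjusted p = 0.000123). *ATAF1* (Glyma.04G249000), a NAC factor that promotes senescence in Arabidopsis, had 87.6 ± 21.1 CPM at V4–V5 against 58.9 ± 5.21 CPM at R5–R6 (log2FC −0.55, adjusted p = 0.0343).

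Of 18 proteases and peptidases, 5 rose (27.8%, against 9.19% of all genes tested), 7 fell (38.9%, against 14.8% of all genes tested) and 6 were not called, with a median log2FC of −0.73. Those that rose were 3 serine carboxypeptidase-like genes, *FTSH8* and *SAG12*, and those that fell were 6 of 8 subtilases and an aspartyl protease family gene. The other subtilases had log2FC values of 0.14 (*ATSBT5.2* Glyma.04G022300) and −2.50 (*AIR3* Glyma.14G048000, adjusted p = 0.0525). The subtilase Glyma.16G018900 fell from 169.9, 112, 139.5 and 57.1 CPM to 8.34, 7.08, 5.501 and 6.53 CPM (log2FC −4.04, adjusted p = 0.000145), and the subtilase *ARA12* (Glyma.05G103200) from 11.1 ± 2.75 CPM to 0.735 ± 0.476 CPM (log2FC −3.997, adjusted p = 0.000793). The carboxypeptidase-like *scpl50* (Glyma.20G015400) rose from 3.37, 3.199, 4.07 and 3.18 CPM to 15.4, 25.4, 29.5 and 33.4 CPM (log2FC 2.87, adjusted p = 0.000176), and *SCPL45* (Glyma.03G125400) from 0.546 ± 0.313 CPM to 5.28 ± 1.84 CPM (log2FC 3.28, adjusted p = 0.000277). All 4 of these genes were separate between stages in every library. The third carboxypeptidase-like gene, *scpl33* (log2FC 1.06), was not called when any of the rings was left out (0.93 without ring 7), and the subtilases Glyma.09G195100 (−1.48) and Glyma.17G048700 (−2.04) were not called without ring 1 (−1.28 and −1.58), 2 (−1.73 and −2.23) or 4 (−1.04 and −1.70).

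Of 6 ethylene, jasmonate and oxylipin genes 1 rose (16.7%, against 9.19% of all genes tested) and 2 fell (33.3%, against 14.8% of all genes tested). For ethylene, *ACO4* (Glyma.09G008400), the last enzyme of synthesis, rose from 0.698, 2.42, 1.19 and 2.79 CPM to 22.5, 7.35, 13.1 and 7.08 CPM (log2FC 2.67, adjusted p = 0.00859), while *ACS6* (Glyma.08G018000), the enzyme before it, fell from 12.3, 11.03, 7.85 and 4.79 CPM to 2.57, 1.28, 1.31 and 2.19 CPM (log2FC −2.28, adjusted p = 0.00159). Neither gene overlapped between stages. *AOC4* (Glyma.18G280900), an allene oxide cyclase of jasmonate synthesis, fell from 22.6 ± 7.25 CPM to 1.64 ± 0.754 CPM (log2FC −3.83, adjusted p = 0.000309). The other 3 of the 6 were not called.

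Of 10 auxin genes 3 fell (30%, against 14.8% of all genes tested) and 0 rose (against 9.19%). Their median log2FC of −0.15 became 0.16 with total counts and 0.09 without ring 7. With total counts 3 were called higher and 2 lower. *IAA29* (Glyma.04G066300), a repressor of auxin response, had 9.83, 7.32, 5.76 and 14.6 CPM at V4–V5 against 0.763, 0.776, 2.52 and 0.498 CPM at R5–R6 (log2FC −3.08, adjusted p = 0.00414). *IAA27* (Glyma.15G017500), of the same family, fell from 57.1 ± 16.6 CPM to 16.7 ± 4.31 CPM (log2FC −1.76, adjusted p = 0.000305), and the third was a SAUR-like gene, Glyma.06G025300 (−1.01), which was not called without ring 1, 4 or 7 (−1.01, −0.89 and −0.88) or without the ring as a block (−0.9996).

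Of 6 gibberellin genes 2 fell (33.3%, against 14.8% of all genes tested), both of the gibberellin-regulated family. One of them, Glyma.04G179500 (log2FC −2.16), was not called without ring 1 or 4 (−1.98 and −1.63). Glyma.06G044400 had 184, 282, 97.5 and 211 CPM at V4–V5 against 24.7, 50.95, 4.75 and 114 CPM at R5–R6, lower in each of the 4 rings and lowest in ring 4 at both stages (log2FC −2.64, adjusted p = 0.00619). Of 6 genes of abscisic acid and drought, 3 rose (50%, against 9.19% of all genes tested) and 1 fell (16.7%, against 14.8%). *HAI3* (Glyma.14G162100), a phosphatase that restrains abscisic acid signalling, rose from 10.7, 9.97, 10.1 and 13.5 CPM to 19.1, 53.1, 38.6 and 90.8 CPM, with ring 7 highest (log2FC 2.003, adjusted p = 0.00215). The others that rose were *DPBF3*, not called without ring 2 or 4 (1.40 and 1.14), and *ECP63*, and *SLAH3*, an anion channel, fell from 1.06 CPM to 0 counts in the 4 R5–R6 libraries.

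Defence genes had 7 of 24 members higher (29.2%, against 9.19% of all genes tested), 8 lower (33.3%, against 14.8% of all genes tested) and a median log2FC of 0.13. Without ring 7 it was −0.04, with 6 higher and 7 lower. *CERK1* (Glyma.15G111300), the chitin receptor kinase, had at most 0.0706 CPM at V4–V5 against 0.477, 1.28, 2.88 and 4.19 CPM at R5–R6 (adjusted p = 0.000366). A pair of neighbouring IDs for disease resistance proteins of the TIR-NBS-LRR class rose by similar amounts, with log2FC values of 2.14 (Glyma.06G265400) and 2.13 (Glyma.06G265420). Of the *KTI1* genes for trypsin inhibitors, Glyma.08G341700 fell from 13.8, 6.798, 5.31 and 2.68 CPM to 0.953, 0.274, 0.0794 and 0.0498 CPM (log2FC −4.73, adjusted p = 0.000251) and Glyma.08G341600 had a log2FC of −1.87. A further pair, Glyma.08G341800 and Glyma.08G342100, was not called (0.73 and 0.83). *CRK29* (Glyma.01G013500), a receptor-like kinase, fell from 26.5, 25.7, 30.8 and 29.4 CPM to 9.72, 5.94, 7.15 and 12.3 CPM (log2FC −1.73, adjusted p = 0.000599).

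In sugar and central carbon metabolism 3 of 19 members rose (15.8%, against 9.19% of all genes tested), 1 fell (5.26%, against 14.8% of all genes tested) and 15 were not called, with a median log2FC of −0.31 that became 0.01 with total counts. *ADH1* Glyma.04G240800, an alcohol dehydrogenase, rose from 0.233, 0.659, 0.226 and 0.446 CPM to 3.86, 6.53, 5.72 and 12.9 CPM (log2FC 4.09, adjusted p = 0.000219), while *ADH1* Glyma.06G122600 had 24.4 ± 3.36 and 18.3 ± 8.84 CPM and was not called (log2FC −0.51). *TPS7* (Glyma.12G129800), of trehalose phosphate synthesis, rose from 13.6 ± 0.852 CPM to 29.3 ± 4.61 CPM (log2FC 1.09, adjusted p = 0.001203, with a log2FC of 0.98 without ring 1). *GolS2*, a galactinol synthase, was the third that rose, at 0.706 CPM at V4–V5 against 1.64 CPM at R5–R6, and was not called without ring 1, 2 or 4 (log2FC 0.86, 1.39 and 1.01) or without the ring as a block (1.26). *AMY1* (Glyma.17G242400), an alpha-amylase, fell from 8.08, 10.04, 6.44 and 4.68 CPM to 1.05, 1.64, 1.25 and 4.39 CPM (log2FC −1.99, adjusted p = 0.0127), and its call was lost without ring 1, 2 or 4 (−1.71, −1.78 and −1.85).

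Of 11 nitrogen, sulphur and amino acid genes, 3 rose (27.3%, against 9.19% of all genes tested) and 4 fell (36.4%, against 14.8% of all genes tested), with a median log2FC of −0.31 that became 0.01 with total counts. *SULTR2;1* (Glyma.08G138600), a sulphate transporter of vascular cells in Arabidopsis, rose from 0.174, 0.04705, 0.169 and 0.223 CPM to 2.19, 1.05, 11.5 and 1.89 CPM, with ring 4 far above the other rings (log2FC 4.41, adjusted p = 0.000693). *MGL* (Glyma.13G001200), which breaks down methionine, fell from 30.97 ± 10.1 CPM to 10.5 ± 3.77 CPM (log2FC −1.58, adjusted p = 0.00354). *SHM4* (Glyma.05G152100), of serine and glycine exchange, had a log2FC of −1.30 (adjusted p = 0.00513), or −0.98 with total counts. The remaining calls were *PSAT* and *ATAAP3*, which fell, and *HL* and an amino acid transporter family gene (Glyma.10G094000, not called without ring 4, log2FC 1.28), which rose.

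Of 19 redox and detoxification genes, 2 rose (10.5%, against 9.19% of all genes tested) and 4 fell (21.1%, against 14.8% of all genes tested), with a median log2FC of −0.15 that became 0.17 with total counts. The 2 were *GSTU19* Glyma.15G252000 and *APX2*, and the 4 were 3 peroxidase family genes and *NQR*. Without ring 7, 21 members could be tested and 10 were called, 5 higher and 5 lower. Of 6 phenylpropanoid and flavonoid genes, 1 rose (*FAH1*, 16.7%, against 9.19% of all genes tested) and 1 fell (*REF3*, 16.7%, against 14.8%). *REF3* was not called without ring 1, 2 or 4 (−1.40, −1.56 and −1.34). Of 5 metal handling genes, 1 rose (*MHX1*, 20%, against 9.19%) and 2 heavy metal transport family genes fell (40%, against 14.8%). The median of the 5 was −0.21 (0.11 with total counts and 0.01 without ring 7). Outside the groups, both copies of *NF-YA10*, a subunit of a CCAAT-binding factor, rose from 10.8 ± 4.83 CPM to 38.8 ± 2.46 CPM (Glyma.02G195000, log2FC 1.92) and from 3.31 ± 2.02 CPM to 16.2 ± 2.26 CPM (Glyma.10G082800, log2FC 2.42). A zinc-binding dehydrogenase family gene, Glyma.19G008700, rose from 0.523, 0.8703, 1.92 and 2.73 CPM to 18.6, 107, 115 and 112 CPM, with ring 1 lowest at both stages (log2FC 5.92, standard error 0.32, adjusted p = 8.9e-05).

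Soybean keeps many genes as duplicate copies, and 34 pairs of tested copies shared a name. Of these, 20 pairs had log2FC values of the same sign and 14 of opposite sign. In 6 pairs both copies were called, each time in the same direction, in 13 pairs 1 copy was called, and in 15 neither was. *ADH1* (4.09 and −0.51) and *TOE1* (−1.67 and 0.45) were pairs of opposite sign with 1 copy called, and *KLU*, *BIN2*, *sks5* and *NF-YA10* pairs with both copies called. A difference between the copies of a pair was not tested.

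The stage effect was then set beside that of the other line and CO2 level, using a single fit of the 32 libraries (1 mean per group of line, CO2 and stage) that tested 35639 genes. This fit had no ring as a block and called stage for 9405 genes in WT at ambient CO2. Stage was called for 9756 genes (27.4%) in WT at elevated CO2, 10676 (30%) in VPZ-34A at ambient CO2 and 10286 (28.9%) in VPZ-34A at elevated CO2. The fit with the ring as a block had called 7790 genes in WT at ambient CO2. Of these, 7763 (99.7%), 7779 (99.9%) and 7733 (99.3%) had the same sign in the other groups. The same genes were also called there in 6528 (83.8%), 6886 (88.4%) and 6373 (81.8%) cases, and 0, 1 and 2 were called in the opposite direction. Across 32432 genes, which are not independent, the log2FC of WT at ambient CO2 in the blocked fit had a correlation of 0.95, 0.96 and 0.94 with that of the other groups. The shared signs, shared calls and correlations thus compare unlike fits. These groups share no library with WT at ambient CO2, while VPZ-34A at ambient CO2 shares its rings and all groups share the 2 dates.

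For the same genes the 4 groups can be read side by side, in the order WT ambient, WT elevated, VPZ-34A ambient and VPZ-34A elevated, from that single fit. The log2FC of *ZEP* Glyma.09G000600 was 3.38, 2.85, 3.52 and 3.31, and that of *ZEP* Glyma.11G055700 was 1.80, 0.95, 1.14 and 0.50. The first was called in all 4 groups, and the second was past an adjusted p of 0.05 and the size for a call in WT at ambient CO2 and VPZ-34A at ambient CO2. *FLA2* had −6.30, −5.20, −7.01 and −5.74, *BGAL3* −6.04, −5.35, −6.61 and −5.94 and *DXS* −3.17, −2.42, −4.15 and −2.55, which is a fall in each group. *FTSH8* had 2.79, 2.46, 3.03 and 2.02 and *SEP3* 2.51, 2.92, 2.33 and 2.998, a rise in each group. The values differed more for *SULTR2;1*, at 4.92, 1.18, 2.88 and 0.86, and for *AMY1*, at −1.86, 0.23, −2.93 and −0.43. *PAP17* had 2.32, 2.88, 2.53 and 1.68 and *PLD zeta 1* 2.43, 3.44, 2.37 and 0.95.

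**Figure D5:**
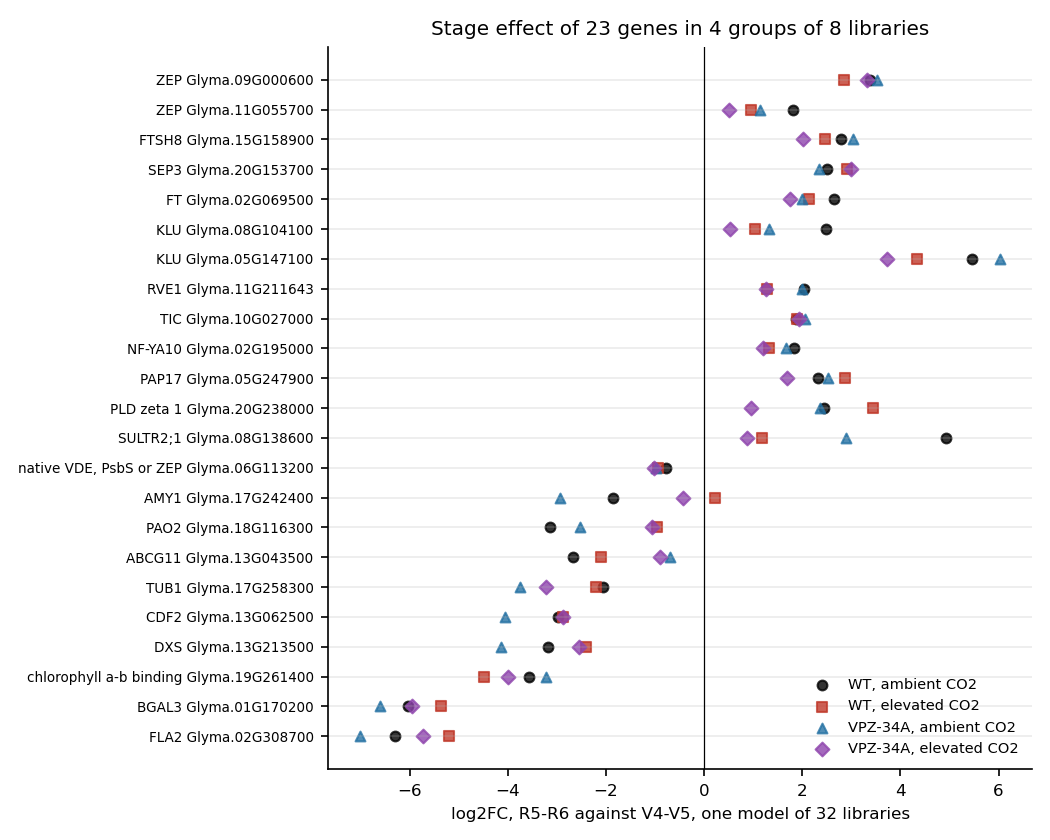
Log2FC of R5–R6 against V4–V5 (x axis) for 23 genes (y axis) in the 4 combinations of line and CO2 level, each point from 8 libraries in one model of 32. The values of *FLA2* lie between −7.01 and −5.20 and those of *FTSH8* between 2.02 and 3.03, while *AMY1* spans −2.93 to 0.23.

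A test of the difference between stage effects called no gene. Between WT at ambient and at elevated CO2, 0 of 35639 genes passed an adjusted p of 0.05 in edgeR (0%), and the lowest adjusted p was 0.794. At an unadjusted p under 0.05 there were 1001 genes (2.81%), below the share of 0.05 that chance alone would give. DESeq2 called 1 gene and limma-voom 0. The lowest p was that of Glyma.10G189000, an ID without a name here (difference 2.85, standard error 0.57, unadjusted p = 2.8e-05). Between WT and VPZ-34A at ambient CO2, edgeR again called 0 genes (0%), with a lowest adjusted p of 0.99999. Here 944 genes (2.65%) had an unadjusted p under 0.05, also below the share from chance, and DESeq2 called 1 and limma-voom 0. The gene with the lowest p in this second test was *ABCG11*, with a difference in log2FC, WT minus VPZ-34A, of −1.96 (standard error 0.40, unadjusted p = 3.5e-05), and it was also the gene DESeq2 called (adjusted p = 0.0376). For *SULTR2;1* the difference from WT at elevated CO2 was 3.74 (standard error 1.15, unadjusted p = 0.00304), and for *ZEP* Glyma.11G055700 it was 0.85 (standard error 0.39, unadjusted p = 0.0379). The test had no ring as a block, although WT and VPZ-34A at ambient CO2 shared their rings and each ring was sampled at both dates. With 4 libraries a group and no block, a p that misses the threshold does not show that the stage effects were alike.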

How the data were processed

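The authors used Trimmomatic 0.39 on the reads, STAR 2.7.10a for alignment against assembly Wm82.a4.v1, extended by the transgene sequences, and featureCounts of Subread 2.0.4 for counting (versions from the submitters' processing notes). A read that aligned to more than one locus gave a fraction to each, so the deposited values are estimated counts without normalisation, and 32.6% of the nonzero values among 52875 genes were not whole. A near-identical copy can therefore take part of a gene's reads. ComBat-seq, which the study used on rings, was not applied to the deposited counts, and 0 columns lacked a sample.

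Here estimated counts were rounded, low counts removed by filterByExpr, TMM factors computed, and stage tested with edgeR 4.0.16 (quasi-likelihood test, R 4.3.3) with the ring as a block and Benjamini-Hochberg adjustment over 32432 genes. A gene was called at an adjusted p under 0.05 and a log2FC of 1 or more in size. The standard error was derived from the log2FC and its test statistic. Differences between stage effects were tested as contrasts of group means in a model of all 32 libraries.

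The ring labels pair the stages, because a ring is the same field plot at both dates. Deviations from the stage means correlated between libraries of the same ring with values of −0.083 to 0.16 (median 0.055), and between different rings with −0.19 to 0.22. Chi-square statistics per gene between the 12 pairs of libraries within stages were 13.2 to 68.4, so no library was a copy.

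Gene names came from the text and supplement of the study, because the RefSeq table used here paired 0 of the soybean IDs, and no gene coordinates or sequences are given. The members and lists were chosen with earlier results of these data known. The planned lists, searches in reference descriptions, found nothing to search, and were replaced by groups written from the names. The rule took the named genes with the largest log2FC and the largest CPM difference in each direction, those most changed or most abundant in each group, flowering, clock and xanthophyll cycle genes, and the 2 genes with the lowest p for each difference. It named 106 genes, of which 60 are described, more than the 20 to 30 planned. A further 19 described genes, among them *SAG12*, *ICL*, *SULTR2;1*, *CERK1* and second copies of named genes, were chosen after their values were seen, as were other called members named in the groups. Promoter motifs were not searched.

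On simulated counts with 200 changed genes, the stage test recovered 92.5% of them with 16 wrong calls among 32432 genes, and the test of differences between CO2 levels 97% with 12 wrong among 35639. The counts were simulated without differences between rings, and every change between CO2 levels had the larger of the sizes used for stage. These shares hold for the effect sizes used there only, and recovery at other sizes was not tested. The 97% thus does not bear on smaller differences. The alternatives were limma-voom (limma 3.58.1) with the ring as a fixed or random block, DESeq2 1.42.0, RLE size factors, total counts, other filters, unrounded counts, no ring block, all 32 libraries in one model, and each ring left out in turn.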

Additional observations from a re-analysis of the deposited data

Results flagged for a closer look

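For the 79 genes described, each set of 4 libraries of a stage was searched for 1 value far from the other 3 (a ratio above Dixon's critical value). Of 158 sets, 16 held such a value. Chance gives about 5% for independent sets of normally distributed values. These sets share libraries, CPM need not be normal, and some genes were chosen after their values were seen. The number is therefore a description. Of the 16, 10 were at V4–V5, and 7 of these were in the library of ring 7, which also stood apart in the principal components.

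The V4–V5 library of ring 7 was above the others for *FT* (3.01 CPM), *BIN2* Glyma.02G069400 (9.09 CPM), *ZEP* Glyma.09G000600 (4.85 CPM) and *CDF2* (14.6 CPM). It was below them for *DXS* (11.6 CPM), the GDSL-like lipase gene Glyma.13G231300 (37.02 CPM) and *CSLE1* (55.7 CPM). For *FT*, *BIN2*, *ZEP*, *DXS* and the lipase gene this lay towards the R5–R6 values, and for *CDF2* and *CSLE1* away from them. Without ring 7 each of these genes stayed on its side of the threshold for a call, with log2FC values of 3.83, 2.42, 3.82, −3.44, −3.97, −6.30 and 0.71 in the order named.

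The other values at V4–V5 were *KCS12* in ring 1 (15.4 CPM, high), *AGL42* Glyma.10G240500 in ring 1 (0.174 CPM, with 0 in the other rings) and *RNS1* in ring 2 (16.5 CPM, high). At R5–R6, ring 7 was high for *RNS2* (144 CPM), *ADH1* Glyma.06G122600 (31.5 CPM) and *RNS1* (2.34 CPM). Ring 4 was high for *SULTR2;1* (11.5 CPM) and *IAA29* (2.52 CPM), and ring 1 was low for the dehydrogenase gene Glyma.19G008700 (18.6 CPM).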

How the results depend on the processing

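The stage effect was recomputed under 14 alternatives. The number of genes called stayed between 6851 and 9575 except with at least 10 counts in every library, where 5155 genes were called, 1962 higher and 3193 lower, and members called in the gene groups went from 115 to 62, since fewer genes were tested. With total counts 5194 genes were called higher. Leaving out each ring in turn gave 6851 to 8763 called genes. Without the ring as a replicate block, 7805 genes were called, 3057 higher and 4748 lower, 7541 of them shared with the blocked fit, and the block changed no call of the 79 genes described in most detail, while 6 group members lost and 5 gained a call and the phosphate group went from 5 called members to 3. In one model of all 32 libraries 9405 genes were called. The 2 *ZEP* genes remained the called native genes in every alternative. For the differences of stage effect, DESeq2 called 1 gene each (Glyma.18G225300 between CO2 levels and *ABCG11* between lines) and the other alternatives 0. Of 1085 recomputed values of described genes, 1059 kept their direction and their side of the threshold, 17 lost a call, 7 gained one and 2 changed sign, namely Glyma.03G253500 with total counts (0.19) and *ELIP1* Glyma.10G243800 without ring 2 (−0.012, the lowest value on leaving out a ring, with 0.33 the highest). The cause was not tested. A further 21 could not be computed. Calls of named genes lost without 1 ring are given with those genes, and *PLD zeta 1* (2.14) and *AGL42* Glyma.20G154200 (3.78) also lost theirs with limma-voom and a random block. Low counts limit the folds of *AGL42*, *CERK1*, *ICL* and *SAG12*.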
